A study of Mus musculus with 16 samples.

Results

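The expression of 10 genes whose products organize the mitochondrial inner membrane was followed in p53−/−; Myc hepatoblasts by RNA-seq. They were chosen by name, as 10 of the 40840 genes in the deposited count table. They were Cox7a2l, Higd1a and Higd2a (respiratory supercomplexes), Opa1, Immt, Chchd3, Chchd6 and Chchd10 (cristae), and Phb2 and Oma1 (prohibitin scaffold and its stress protease). The hepatoblasts are a mouse cell line that lacks p53 and overexpresses Myc and serves as a model of hepatocellular carcinoma. This background is shared by all 4 groups, so that no group had wild-type cells, and how Myc expression is driven is not given in the sources used here. The groups were DMSO (vehicle) for 48 hours, sorafenib at 8.5 µM for 48 hours, DMSO for 7 days and sorafenib at 8.5 µM for 7 days, with 4 libraries in each. Sorafenib is a multikinase inhibitor used against liver cancer, and the study asked how it affects metabolism and mitochondrial function in this line.

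The inner mitochondrial membrane folds into cristae, where respiratory complexes I, III and IV can assemble into supercomplexes. The MICOS complex holds the narrow crista junctions, the GTPase OPA1 fuses inner membranes and keeps cristae tight, and rings of prohibitins organize proteins and lipids around them. When the membrane potential falls, the protease OMA1 cleaves OPA1, which ties crista shape to mitochondrial stress signalling, and liver cells, rich in mitochondria, depend on this machinery for respiration.

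Library totals ranged from 16586254 to 30828427 counts (median 26360677), and values below are normalized counts, the read counts scaled by library total and TMM factor, as mean ± SD over 4 libraries. In replicate 2 of sorafenib for 48 hours, counts of genes after a place on chromosome 14 (from Ipo5, start 121147750, GRCm39) were 0.605 times the level before it, relative to the other replicates. Cox7a2l on chromosome 17 and Opa1 on chromosome 16 lie after this place. Values of theirs that move with that library are also given without it. The other genes of the 10 lie before it, and a single scaling factor per library covers both parts. Among the sorafenib 48-hour libraries, this one was highest for Higd1a, Higd2a, Immt, Chchd3, Chchd10 and Phb2, but not for Chchd6 and Oma1. How much of this came from the scaling was not tested. Of 9 hepatoblast and liver epithelium markers, Hnf4a was at 0 in all 16 libraries, Alb did not exceed 0.984 and Afp 13.0 normalized counts in any library, and Dlk1 was high, with group means from 4020.2 to 32234. The summed level of these markers was 34811 to 36175 in DMSO and 12242 to 14015 in sorafenib at 48 hours, and 18304 to 20167 in DMSO and 6039 to 6307 in sorafenib at 7 days. Most of this sum is Dlk1, and Sox9 of the same list had means of 213 in DMSO and 664 in sorafenib at 48 hours and of 349.7 and 904 at 7 days. The 5 stellate cell and fibroblast markers summed to 46738 to 49825 in DMSO and 133486 to 154791 in sorafenib at 48 hours, and to 66171 to 67940.4 and 114450.4 to 119563 at 7 days. Col1a1 and Acta2 carry this sum, and Pdgfrb of the same list had lower means in sorafenib, 1668 in DMSO and 977 in sorafenib at 48 hours and 718 and 469.8 at 7 days. Leukocyte markers stayed between 58.1 and 88.1, with Adgre1 at 0 in all libraries, and endothelial markers between 28.1 and 222, of which Kdr made up nearly all and was higher in sorafenib, while Pecam1 and Cdh5 had under 10 counts in every library. The part of these markers in the results on the mitochondrial genes was not tested.

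With sorafenib, the most altered of the 10 genes was Chchd10, which was 5.03-fold higher at 48 hours and 3.65-fold higher at 7 days. Higd1a was 2.40-fold lower at 48 hours, and Chchd3 was 1.51-fold higher. At 48 hours, 4 genes rose (Opa1, Immt, Chchd3 and Chchd10) and 3 fell (Cox7a2l, Higd1a and Higd2a), so that 7 of 10 passed an FDR of 0.05 in edgeR (quasi-likelihood F-test, Benjamini-Hochberg adjusted), beside 54.6% of all 20444 genes tested. At 7 days, 3 rose (Chchd3, Chchd6 and Chchd10) and 4 fell (Cox7a2l, Immt, Phb2 and Oma1), again 7 of 10, beside 56.8% of all genes. These shares are near those of all genes and do not set the 10 genes apart. All genes tested include many with few counts, whereas the 10 had at least 266 normalized counts in every library. Among genes with at least 10 counts in every sample, 9196 of 12158 passed at 48 hours and 9146 of 12158 at 7 days. The median absolute log2 fold change of the 10 genes was 0.25 at both time points, below the 0.50 of all genes tested. Sorafenib and DMSO libraries did not overlap for 6 of the 10 genes at 48 hours, beside 48.0% of all genes, and for 9 of 10 at 7 days, beside 56.8%. The median and the shares without overlap for all genes also hold the genes with few counts, and were not taken for genes of like level. The labels do not say that replicates were separate cultures, so p-values measure the spread between these samples, which may be technical. In these bulk samples, fewer cells of a type and less RNA per cell cannot be told apart.

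**Figure D1:**
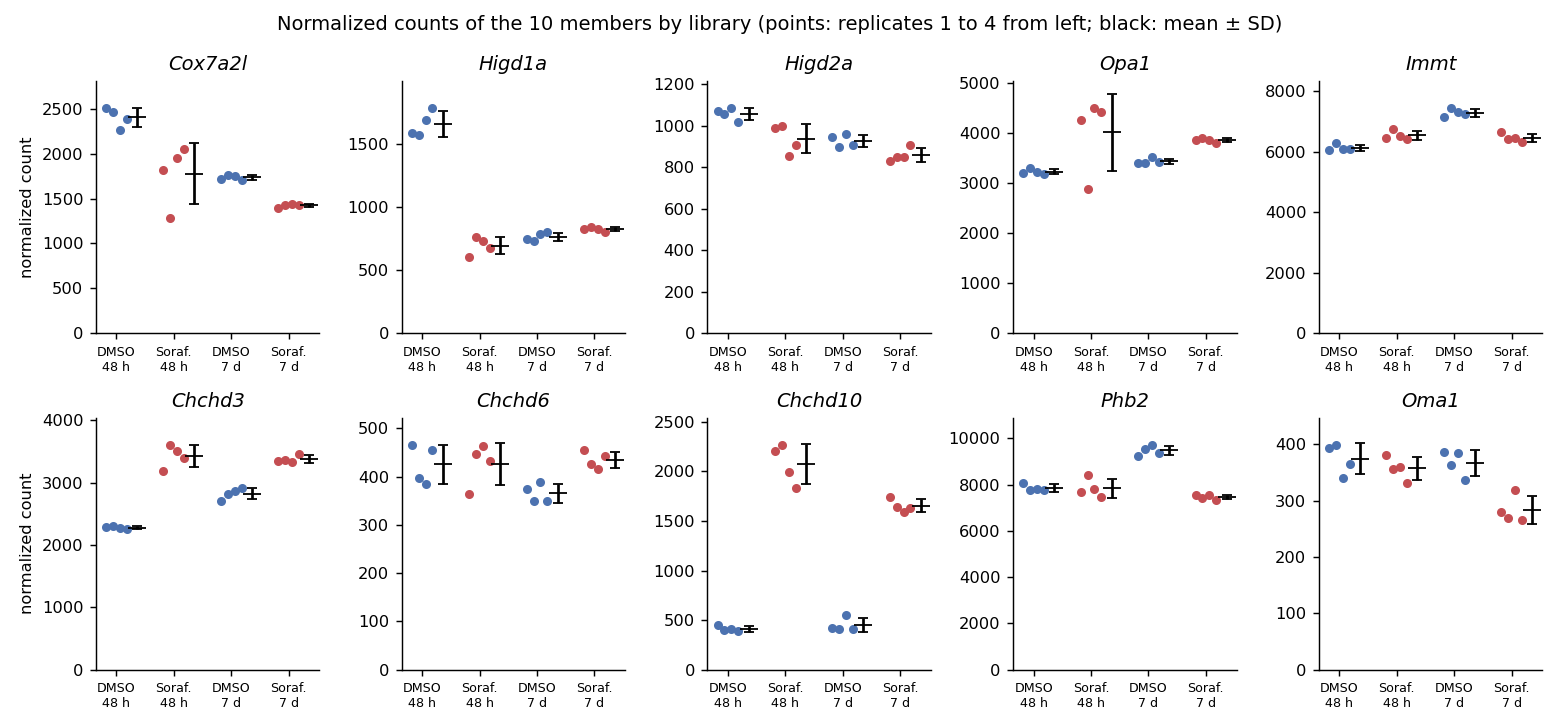
Normalized counts (y axis, from 0) of the 10 genes, 1 panel per gene, in the 4 groups on the x axis. Points are single libraries, replicates 1 to 4 from left, and black marks are the mean ± SD of 4 libraries. Chchd10 lies between 386 and 556 in the DMSO libraries and between 1592 and 2268 in the sorafenib libraries, and Higd1a lies at or above 1566 in DMSO for 48 hours and at or below 839 in the other groups.

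Among the supercomplex genes, Higd1a, a hypoxia-inducible inner-membrane protein that associates with complex IV (chr9:121677622-121687428, minus strand, GRCm39), showed a level that set 1 group apart. In DMSO for 48 hours it had 1584, 1566, 1688 and 1783 normalized counts in replicates 1 to 4, and in sorafenib for 48 hours 603, 758, 726 and 673. At 7 days it had 742, 729.8, 786 and 797 with DMSO and 827, 839, 827 and 802 with sorafenib. All 4 libraries of DMSO for 48 hours were thus far above the other 12, and at 7 days every sorafenib library was slightly above every DMSO library. The log2 fold change with sorafenib was −1.26 at 48 hours (SE 0.0587, FDR 2.52e-13) and 0.11 at 7 days (SE 0.0587, FDR 0.123), where the test was not passed although the groups did not overlap. Without the lowered library the 7-day value of Higd1a passed (0.11, FDR 0.0409), as it did with only the 7-day libraries in the fit (0.10, FDR 0.0279). The 5′ end of Higd1a is shown as 1 of the 3 genes of the group with the largest fold changes. The window is RefSeq's, from 250 bases before to 50 after the annotated start, and was searched on both strands for TGATGNAA (a CHOP-ATF4 type element), CACGTG (an E-box), and ACGTG and GCGTG (hypoxia response cores, of which ACGTG also lies within CACGTG). It was placed on GRCm39 at chr9:121686813-121687112, minus strand, and capitals mark the matches.
Higd1a 5′ window: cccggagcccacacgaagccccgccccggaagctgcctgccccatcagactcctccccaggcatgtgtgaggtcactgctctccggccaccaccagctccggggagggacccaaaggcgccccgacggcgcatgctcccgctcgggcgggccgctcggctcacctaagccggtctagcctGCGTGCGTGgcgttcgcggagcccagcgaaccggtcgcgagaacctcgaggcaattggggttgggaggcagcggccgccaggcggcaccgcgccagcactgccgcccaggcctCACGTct
GCGTG matched on the sense strand 70 and 66 bases before the start, in matches that share a base, and ACGTG matched on the antisense strand 44 bases after it. Of all 32851 RefSeq windows, 32.4% held GCGTG and 11.1% held it in 2 or more copies, and 19.6% held ACGTG.

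Higd2a, the other member of the HIG1 domain family measured here and an assembly factor of complex IV and supercomplexes (chr13:54738018-54738971, plus strand), moved less. It had 1069, 1058, 1085 and 1017 normalized counts in DMSO and 988, 999.5, 855 and 907 in sorafenib at 48 hours. After 7 days it had 946, 899, 959.9 and 908 in DMSO and 830.1, 847, 848 and 907 in sorafenib. Every sorafenib library was below every DMSO library at 48 hours, whereas at 7 days the highest sorafenib library lay within the DMSO range. Higd2a fell by 0.18 on the log2 scale at 48 hours (SE 0.0492, FDR 0.00429), and its 7-day value of −0.11 (SE 0.0488, FDR 0.0549) did not pass. Without the lowered library that value passed (−0.11, FDR 0.0186), as it did with only the 7-day libraries in the fit (−0.12, FDR 0.00893). Cox7a2l, also known as SCAF1, joins complexes III and IV (chr17:83765970-83824759, minus strand). It had 2510.2, 2469.9, 2263 and 2382 normalized counts in DMSO and 1817, 1287, 1950.2 and 2052 in sorafenib at 48 hours, the lowest in the library with the lowered region. With DMSO for 7 days it had 1723, 1768, 1757 and 1708, and with sorafenib 1394, 1426, 1444 and 1430.3. Sorafenib libraries were below all DMSO libraries of the same time point in both cases. Cox7a2l fell by 0.43 at 48 hours (SE 0.0870, FDR 0.000265) and by 0.29 at 7 days (SE 0.0877, FDR 0.00836). Without the lowered library, the 48-hour value was −0.31 (FDR 1.6e-10).

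Of the cristae genes, Chchd10, a small protein of the intermembrane space with paired cysteine motifs (chr10:75768964-75774713, plus strand), had the largest response. In DMSO for 48 hours it had 455, 398, 407 and 386 normalized counts, and in sorafenib 2203, 2268, 1996 and 1828. At 7 days it had 421, 415, 556 and 413 in DMSO and 1745, 1645, 1592 and 1626 in sorafenib. The lowest sorafenib library was far above the highest DMSO library at each time, and within DMSO replicate 3 at 7 days stood above the other 3. The log2 fold change was 2.33 at 48 hours (SE 0.0862, FDR 6.28e-15) and 1.87 at 7 days (SE 0.0848, FDR 1.6e-13). Without DMSO 7-day replicate 3, the 7-day value was 1.99. For this gene the window lies at chr10:75768714-75769013 (plus strand, GRCm39), and it is shown as that of the gene with the largest fold change.
Chchd10 5′ window: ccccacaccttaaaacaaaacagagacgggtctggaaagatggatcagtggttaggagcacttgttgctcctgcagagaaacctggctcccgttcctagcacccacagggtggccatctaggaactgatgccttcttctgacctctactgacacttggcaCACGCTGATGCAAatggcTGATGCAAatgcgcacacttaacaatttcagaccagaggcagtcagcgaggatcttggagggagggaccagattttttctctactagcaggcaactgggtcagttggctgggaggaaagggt
The TGATGNAA matches, on the sense strand, started 85 and 72 bases before the start, and a GCGTG match on the antisense strand adjoined the first, at 90 bases before the start. TGATGNAA occurred in 3.97% of all windows and in 2 or more copies in 23 of 32851 (0.0700%). None of the other 9 genes held TGATGNAA. The matches depend on the start used: GENCODE's canonical transcript of Chchd10 starts 190 bases downstream, and the same window around that start held no TGATGNAA and 1 ACGTG. The GENCODE window of Higd1a held none of the 4 motifs. The RefSeq windows were chosen for printing after the matches in both had been seen. The shares of all windows therefore do not measure how unusual a printed match is. A match describes letters in a window and does not show that a factor binds there.

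Chchd3, or MIC19, a MICOS subunit that reaches toward the outer membrane (chr6:32762883-33037211, minus strand), was higher with sorafenib at both times. At 48 hours it had 2283, 2304, 2266 and 2254 normalized counts in DMSO and 3191, 3609, 3516 and 3404 in sorafenib. The 7-day libraries had 2701, 2818, 2861 and 2919 in DMSO and 3349, 3366, 3333 and 3465 in sorafenib. No libraries overlapped between treatments, and the gap was smaller at 7 days, where the DMSO libraries were higher. The log2 fold change was 0.59 at 48 hours (SE 0.0368, FDR 2.61e-11) and 0.26 at 7 days (SE 0.0363, FDR 4.02e-06). Its window, at chr6:33037146-33037445 (minus strand, GRCm39), is printed as that of the gene with the next largest fold change.
Chchd3 5′ window: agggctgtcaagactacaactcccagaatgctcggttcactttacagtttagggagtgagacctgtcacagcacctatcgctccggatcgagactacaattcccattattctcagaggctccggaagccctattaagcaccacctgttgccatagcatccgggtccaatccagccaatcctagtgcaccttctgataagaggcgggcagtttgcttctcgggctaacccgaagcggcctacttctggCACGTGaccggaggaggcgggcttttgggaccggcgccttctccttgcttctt
The capitals mark CACGTG, 3 bases before the start, a motif found in 7.15% of all windows and also in the window around GENCODE's start of Chchd3. Among the other windows, Immt and Chchd6 held 1 GCGTG each, Higd2a 3, and Phb2 1 ACGTG. None of the 4 motifs was found in these windows of Cox7a2l, Opa1 and Oma1.

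Chchd6, or MIC25, the MICOS subunit most closely related to Chchd3 (chr6:89360126-89572640, minus strand), was not called at 48 hours. It had 466, 396, 386 and 455 normalized counts in DMSO and 365, 446, 464 and 432 in sorafenib at 48 hours. After 7 days it had 375, 349, 389 and 349 in DMSO and 454, 426, 416 and 444 in sorafenib. The groups overlapped at 48 hours (log2 fold change 0.01, SE 0.0755, FDR 0.942) and were separate at 7 days, when Chchd6 was higher with sorafenib (0.25, SE 0.0745, FDR 0.00734). Immt, or MIC60, the core subunit of MICOS (chr6:71808260-71854372, plus strand), had small changes of opposite sign at the 2 times. Its normalized counts were 6049.6, 6266, 6074 and 6099.9 in DMSO and 6457, 6738, 6524 and 6417 in sorafenib at 48 hours. At 7 days they were 7135, 7438, 7301 and 7255 in DMSO and 6633, 6405, 6447 and 6305 in sorafenib. Sorafenib libraries were thus above all DMSO libraries at 48 hours and below all of them at 7 days. The log2 fold change was 0.09 at 48 hours (SE 0.0277, FDR 0.00717) and −0.18 at 7 days (SE 0.0276, FDR 1.55e-05). The call at 48 hours rests on small margins. With total counts in place of TMM the value of Immt was 0.02 (FDR 0.583). The call was also lost on leaving out any 1 of 5 libraries, replicate 1, 3 or 4 of DMSO or replicate 1 or 3 of sorafenib, with values of 0.06 to 0.07 (FDR 0.0508 to 0.0962) and the lowest, 0.0585, without DMSO replicate 3.

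Opa1, the inner-membrane fusion GTPase (chr16:29398108-29473858, plus strand), had 3209, 3300.1, 3223 and 3181 normalized counts in DMSO and 4257, 2881, 4507 and 4434 in sorafenib at 48 hours. At 7 days it had 3404, 3399, 3519 and 3433 in DMSO and 3876, 3897, 3857 and 3801 in sorafenib. Of the sorafenib libraries at 48 hours, 3 were above every DMSO library, and replicate 2, the library with the lowered region, was below every one. Opa1 rose by 0.32 on the log2 scale at 48 hours (SE 0.0871, FDR 0.00398), and its 7-day value of 0.17 (SE 0.0865, FDR 0.112) did not pass although the groups did not overlap. Without the lowered library, the values were 0.45 at 48 hours (FDR 6.78e-20) and 0.17 at 7 days (FDR 1.22e-07), both passing the test. In a fit of the 48-hour libraries alone, the 48-hour value of 0.30 did not pass (FDR 0.0785). The spread of that library enters the 7-day test because 1 model held all 16 libraries.

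Phb2, a subunit of the prohibitin rings (chr6:124689299-124693913, plus strand), was not called at 48 hours and was lower with sorafenib at 7 days. It had 8083, 7758, 7813 and 7749 normalized counts in DMSO and 7661, 8408, 7822 and 7459 in sorafenib at 48 hours. The 7-day values were 9244, 9547, 9718 and 9381 in DMSO and 7534, 7429, 7553 and 7343 in sorafenib. The DMSO libraries at 7 days were the highest of all and did not overlap with sorafenib, while at 48 hours the sorafenib range enclosed the DMSO range. Its upper end at 48 hours, 8408, came from the library with the lowered region. Phb2 differed by −0.00274 at 48 hours (SE 0.0333, FDR 0.955) and fell by 0.34 at 7 days (SE 0.0332, FDR 2.14e-08). Oma1, the metalloprotease that cleaves OPA1 under stress (chr4:103170737-103229065, plus strand), was also lower with sorafenib at 7 days, at a low count. Its normalized counts were 393, 399, 340.0 and 366 in DMSO and 382, 355, 359.8 and 332 in sorafenib at 48 hours. At 7 days they were 386, 362, 384 and 337 in DMSO and 280.1, 269.6, 318 and 266 in sorafenib. The sorafenib libraries at 7 days were below all others. The log2 fold change was −0.07 at 48 hours (SE 0.0722, FDR 0.431) and −0.37 at 7 days (SE 0.0719, FDR 0.000166).

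**Figure D2:**
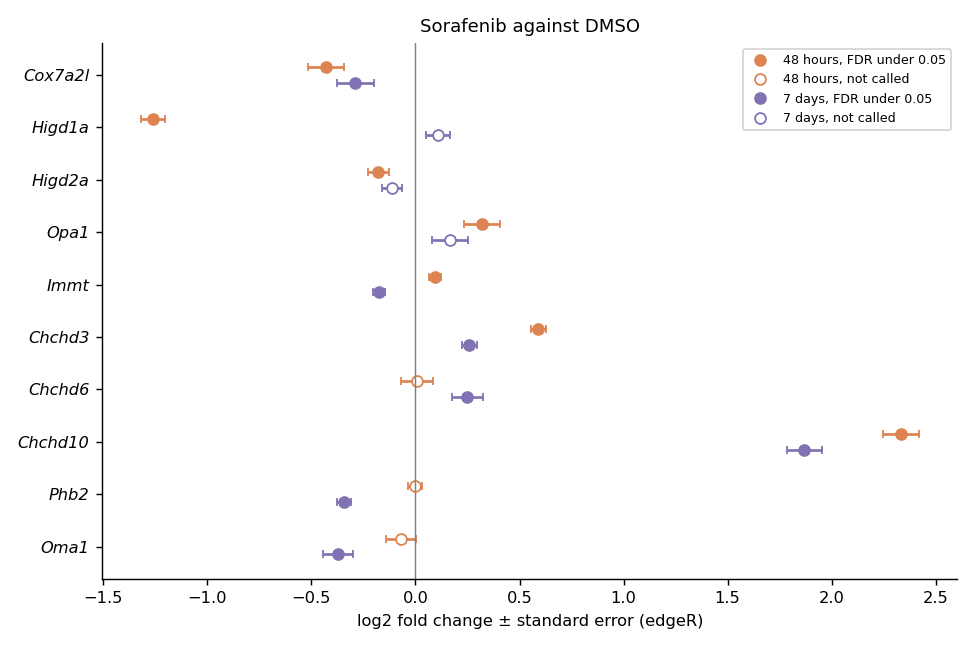
Log2 fold change of sorafenib against DMSO (x axis) for the 10 genes (y axis) at 48 hours and 7 days, with bars of ± 1 SE from edgeR and 4 libraries per group. Filled points passed an FDR of 0.05 and open points did not. Chchd10 lies at 2.33 and 1.87, and Higd1a moves from −1.26 at 48 hours to 0.11 at 7 days.

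For 6 of the 10 genes the response itself differed between 7 days and 48 hours, by the interaction term of the same edgeR model (36.8% of all genes passed, 15.5% with a higher and 21.3% with a lower value at 7 days). Among genes with at least 10 counts in every sample, 6827 of 12158 passed, so this number does not set the 10 genes apart. Higd1a alone had a higher value at 7 days, by 1.37 on the log2 scale (SE 0.0830, FDR 7.77e-11), from a fall at 48 hours to a value near 0. The 5 others were lower at 7 days. Chchd10 differed by −0.46 (SE 0.120, FDR 0.00447) and Chchd3 by −0.33 (FDR 3.11e-05), both remaining higher with sorafenib. Phb2 differed by −0.34 (FDR 7.86e-06), Immt by −0.27 (FDR 1.43e-05) and Oma1 by −0.30 (FDR 0.0257), a call that was lost with total counts in place of TMM (−0.21, FDR 0.145). The Oma1 call was also lost on leaving out any 1 of 8 libraries, 2 from each group, with values of −0.28 to −0.23 (FDR 0.0509 to 0.0906). From 48 hours to 7 days, Phb2, Immt and Chchd3 changed by −0.07, −0.02 and −0.02 in sorafenib and by 0.27, 0.25 and 0.31 in DMSO. Oma1 and Chchd10 changed by −0.33 each in sorafenib and by −0.03 and 0.14 in DMSO. The interaction was not passed for Cox7a2l (0.14, FDR 0.407), Higd2a (0.06, FDR 0.515), Opa1 (−0.15, FDR 0.368) and Chchd6 (0.24, FDR 0.0842). Without the lowered library, Opa1 (−0.28, FDR 1.02e-08) and Chchd6 (0.25, FDR 0.0347) passed as well, so that 8 of the 10 genes did. Of all 20353 genes tested in that fit, 8761 passed, and the value of Cox7a2l was 0.02 (FDR 0.79). The split of calls depends on the scaling. Of all genes, 3162 were higher and 4353 lower with TMM, against 4125 and 3292 with total counts. For the 10 genes, 1 was higher and 5 lower with TMM, and 2 and 4 with total counts.

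The vehicle cells themselves differed between 48 hours and 7 days, a comparison that shares the DMSO libraries with the drug comparisons. In DMSO, 3 of the 10 genes were higher at 7 days (Immt, Chchd3 and Phb2) and 4 were lower (Cox7a2l, Higd1a, Higd2a and Chchd6), beside 23.9% of all genes that were higher and 25.5% that were lower, 49.4% in all. All 3 supercomplex genes were thus lower at 7 days in DMSO. Of the 12158 genes with at least 10 counts in every sample, 4216 were higher and 4419 lower, 8635 in all. Higd1a was 2.17-fold lower (log2 −1.12, FDR 3.04e-12), beside −1.26 with sorafenib at 48 hours against the same DMSO libraries. Cox7a2l fell by 0.47 (FDR 0.000122) and Higd2a by 0.19 (FDR 0.00278). Chchd3 rose by 0.31 (FDR 5.42e-07), Phb2 by 0.27 (FDR 9.06e-07) and Immt by 0.25 (FDR 2.21e-07), while Chchd6 fell by 0.22 (FDR 0.0183). The call of Chchd6 was lost on leaving out replicate 1 or 4 of DMSO for 48 hours or replicate 2 or 4 of DMSO for 7 days (−0.20 to −0.18, FDR 0.0528 to 0.064). Chchd10 (0.14, FDR 0.24), Opa1 (0.09, FDR 0.421) and Oma1 (−0.03, FDR 0.766) did not pass. Opa1 passed at the same size without the lowered library (0.09, FDR 0.00194) and with only the 8 DMSO libraries in the fit (0.10, FDR 0.000863). Chchd10 stood at 0.0178 without DMSO 7-day replicate 3. Libraries of the 2 times did not overlap for 7 of the 10 genes, beside 50.8% of all genes. Time in culture and any batch of the 2 harvests cannot be told apart.

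In sorafenib, fewer of the genes differed between the times. Higd1a was higher at 7 days than at 48 hours (0.25, FDR 0.00211), and Cox7a2l (−0.33, FDR 0.00596), Chchd10 (−0.33, FDR 0.00199) and Oma1 (−0.33, FDR 0.0013) were lower, 4 of 10 beside 39.7% of all genes (17.5% higher and 22.3% lower). Of the 12158 genes with at least 10 counts in every sample, 3537 were higher and 3631 lower, 7168 in all. The 2 times did not overlap for Higd1a, Chchd10 and Oma1 (35.8% of all genes), and they overlapped for Cox7a2l. Immt (−0.02, FDR 0.63), Chchd3 (−0.02, FDR 0.678) and Phb2 (−0.07, FDR 0.107), which were higher with time in DMSO, did not pass in sorafenib. Higd2a (−0.12, FDR 0.0578), Opa1 (−0.06, FDR 0.618) and Chchd6 (0.02, FDR 0.863) did not pass either. Without the lowered library, Opa1 was lower at 7 days and passed (−0.19, FDR 5.75e-08), and Cox7a2l stood at −0.45 (FDR 1.48e-14). The Cox7a2l call was lost without sorafenib 48-hour replicate 4 (−0.23, FDR 0.0562). Higd2a passed without sorafenib 48-hour replicate 3 (−0.15, FDR 0.0216) or sorafenib 7-day replicate 4 (−0.15, FDR 0.0323).

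**Figure D3:**
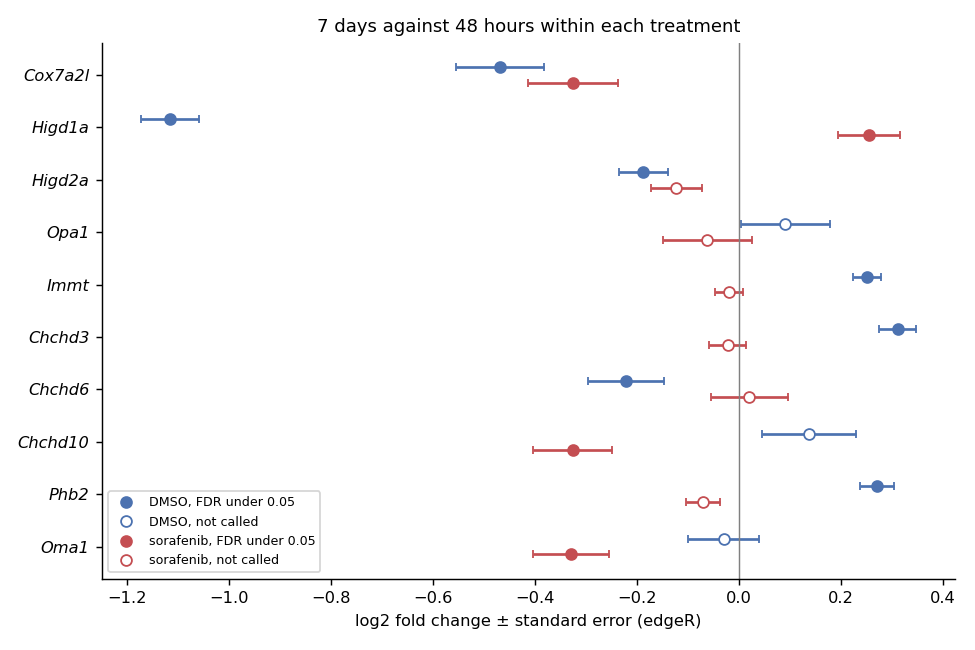
Log2 fold change of 7 days against 48 hours (x axis) for the 10 genes (y axis), in DMSO and in sorafenib, with bars of ± 1 SE from edgeR and 4 libraries per group. Filled points passed an FDR of 0.05 and open points did not. Higd1a lies at −1.12 in DMSO and at 0.25 in sorafenib.

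Ratios of related genes within a library do not depend on the scaling between libraries. The 5 pairs were compared between sorafenib and DMSO at each time by exact permutation, two-sided, with p-values adjusted over the 10 tests. With 4 libraries on each side, p cannot go below 0.0286. Tests at this lowest value had an adjusted p of 0.0476, which says only that the groups did not overlap. The pairs come from genes chosen with earlier results of these data known. Higd1a counts were 1.56 times those of Higd2a in DMSO for 48 hours, 0.735 times in sorafenib for 48 hours, 0.822 times in DMSO for 7 days and 0.960 times in sorafenib for 7 days. The log2 ratio was lower with sorafenib by 1.09 at 48 hours (−1.09, SE 0.114) and higher by 0.22 at 7 days (SE 0.0528), both with an exact p = 0.0286 and an adjusted p = 0.0476. For the paired MICOS subunits, the log2 ratio of Chchd6 to Chchd3 was lower with sorafenib at 48 hours (−0.59, SE 0.0835, exact p = 0.0286, adjusted 0.0476). At 7 days the difference was −0.00655 (SE 0.0589, exact p = 0.914), in groups that overlapped.

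For Phb2 and its partner in the ring, Phb1, the log2 ratio was higher with sorafenib by 0.18 at 48 hours (SE 0.0421) and by 0.22 at 7 days (SE 0.0270), each with an exact p = 0.0286 and an adjusted p = 0.0476. Phb1 fell at both times, by 0.18 (FDR 0.0003) and by 0.57 (FDR 4.63e-11) in the edgeR fit. The ratio of Cox7a2l to its paralog Cox7a2, a complex IV subunit, was higher with sorafenib at 7 days by 0.35 (SE 0.0362, exact p = 0.0286, adjusted 0.0476). At 48 hours it differed by 0.08 (SE 0.187, exact p = 0.771), and by 0.26 without the lowered library. Cox7a2 itself fell by 0.54 at 48 hours and by 0.64 at 7 days. The ratio of Oma1 to Yme1l1, the other main OPA1-cleaving protease, differed by 0.01 at 48 hours (SE 0.0788, exact p = 0.943) and by −0.10 at 7 days (SE 0.0731, exact p = 0.229), in groups that overlapped. Yme1l1 fell by 0.08 at 48 hours (FDR 0.0255) and by 0.27 at 7 days (FDR 6.9e-08).

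**Figure D4:**
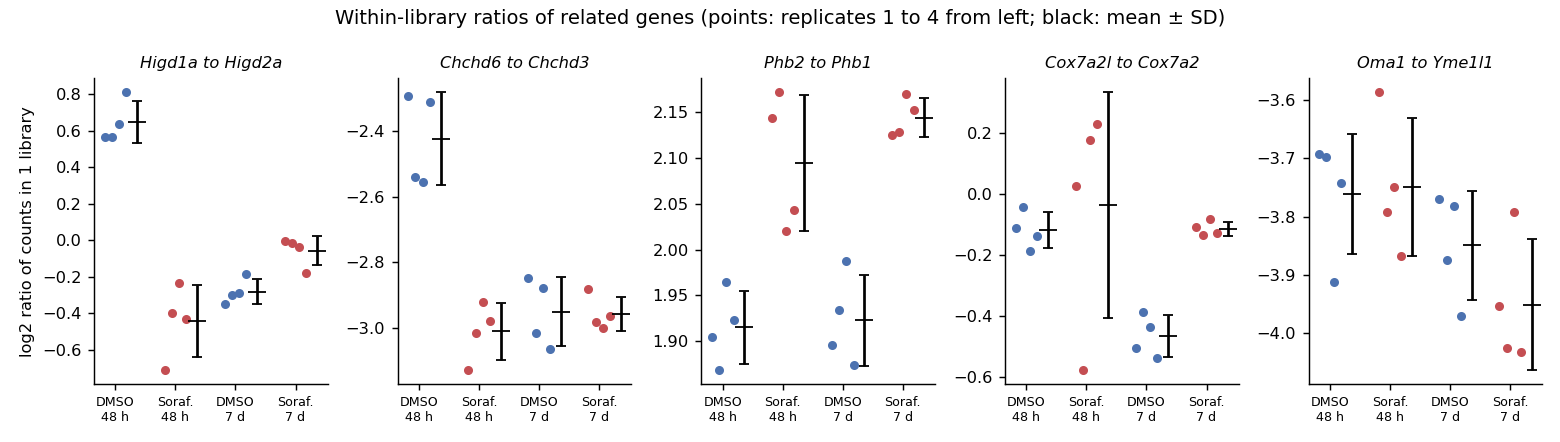
Log2 ratio of the counts of related genes within each library (y axis), 1 panel per pair, in the 4 groups on the x axis. Points are replicates 1 to 4 from left and black marks are the mean ± SD of 4 libraries. The Higd1a to Higd2a ratio lies above 0 in DMSO for 48 hours alone, and the low point of Cox7a2l to Cox7a2 is replicate 2 of sorafenib for 48 hours.

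Levels were compared between genes per kilobase of exon, scaled to library size, with the union of a gene's exons as its length, as a description without a test. In DMSO for 48 hours Phb2 was highest, at 84.0 ± 1.68, followed by Higd2a (60.8 ± 1.67), Higd1a (18.7 ± 1.14) and Immt (16.7 ± 0.268). Opa1 (13.9 ± 0.219) and Chchd3 (13.5 ± 0.130) came next and overlapped. Cox7a2l (8.76 ± 0.398), Chchd10 (3.90 ± 0.283), Chchd6 (2.57 ± 0.244) and Oma1 (1.33 ± 0.0966) were the lowest, each below the one before by more than the spread. With sorafenib for 48 hours, Chchd10 stood at 19.6 ± 1.90, among Chchd3 (20.4 ± 1.07), Immt (17.9 ± 0.391) and Opa1 (17.3 ± 3.29), in an order whose neighbors overlapped. Phb2 (83.9 ± 4.37) and Higd2a (53.9 ± 3.95) still led this group. Higd1a (7.79 ± 0.762) overlapped with Cox7a2l (6.47 ± 1.24), and Chchd6 (2.57 ± 0.262) and Oma1 (1.27 ± 0.0729) were last. At 7 days in DMSO no neighbors overlapped, in the order Phb2 (101 ± 2.19), Higd2a (53.4 ± 1.68), Immt (19.9 ± 0.342), Chchd3 (16.8 ± 0.549), Opa1 (14.8 ± 0.239), Higd1a (8.62 ± 0.369), Cox7a2l (6.33 ± 0.103), Chchd10 (4.27 ± 0.662), Chchd6 (2.20 ± 0.122) and Oma1 (1.30 ± 0.0819). With sorafenib for 7 days, the levels of Phb2 (79.9 ± 1.05), Higd2a (49.3 ± 1.94), Chchd3 (20.1 ± 0.352) and Immt (17.6 ± 0.375) were followed by Opa1 (16.6 ± 0.178) and Chchd10 (15.6 ± 0.622), which overlapped. Higd1a (9.30 ± 0.176), Cox7a2l (5.18 ± 0.0776), Chchd6 (2.62 ± 0.104) and Oma1 (1.01 ± 0.0855) closed that order. Phb2 was first in every group under each of 3 definitions of length. In DMSO for 48 hours, the places of 7 other genes changed with the longest transcript as length and of 8 with the canonical transcript. With the canonical transcript, Cox7a2l in DMSO for 48 hours stood second, at 76.5 ± 3.48, and Chchd10 last, at 5.10 ± 0.370.

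The wider machinery was described with a list of 38 other genes, of which 36 had enough counts to be tested. This list was chosen with earlier results of these data known. Of the 12158 genes with at least 10 counts in every sample, 4445 rose and 4751 fell with sorafenib at 48 hours. For 7 days these numbers were 4686 and 4460. In the list, 11 rose and 13 fell with sorafenib at 48 hours (26.9% and 27.7% of all genes tested), with a median log2 fold change of −0.04 beside −0.05 for all genes. At 7 days 7 of the list rose and 19 fell (28.9% and 27.9% of all genes), with a median of −0.24 beside 0.02. The strongest rise was that of Ghitm, an inner-membrane protein of the Bax inhibitor family with a part in cristae, from 4449 ± 231 to 14345 ± 390.5 normalized counts at 48 hours (log2 1.69, FDR 1.57e-18) and from 4901 ± 75.7 to 13999 ± 420.1 at 7 days (1.51, FDR 6.27e-18). Mfn2, a GTPase of outer-membrane fusion, rose from 1353 ± 37.8 to 2373 ± 232 at 48 hours (0.81, FDR 2.32e-11) and from 2046 ± 41.9 to 2865 ± 35.8 at 7 days (0.49, FDR 3.41e-08). Letm1, an inner-membrane cation exchange protein, rose from 904 ± 23.7 to 1609 ± 155 at 48 hours (0.83, FDR 1.04e-10). At 7 days it was at 1873 ± 104 in DMSO and 1912 ± 40.7 in sorafenib (0.03, FDR 0.66).

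Of the 4 small ATP synthase subunits listed, which sit where the enzyme forms dimers at crista edges, 3 fell at both times, beside 27.7% of all genes at 48 hours and 27.9% at 7 days. Atp5mj fell from 1557 ± 49.9 to 777 ± 45.9 at 48 hours (log2 −1.01, FDR 3.76e-14) and from 1364 ± 11.1 to 669 ± 8.68 at 7 days (−1.03, FDR 2.43e-14). Atp5me fell by 0.75 (FDR 1.65e-11) and by 0.87 (FDR 1.13e-12), and Atp5mk by 0.60 (FDR 2.79e-05; −0.47 without the lowered library) and by 0.62 (FDR 1.62e-05), while Atp5mg did not pass at either time. Of the prohibitin scaffold, the co-chaperone Dnajc19 rose by 0.38 at 48 hours (FDR 0.000132) and by 0.34 at 7 days (FDR 0.000351). Tafazzin, the cardiolipin transacylase, had −0.23 at 48 hours (FDR 0.0318) and rose by 0.34 at 7 days (FDR 0.00298). The 48-hour call of Tafazzin was lost without the lowered library (−0.12, FDR 0.0655). Uqcc3, a complex III assembly factor, fell by 0.91 at 48 hours (FDR 1.61e-06) and Apool, the MICOS subunit MIC27, by 0.74 (FDR 9.19e-05). Both lie after the place on chromosome 14, and without that library they stood at −0.76 and −0.58.

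By role, each count stands beside 26.9% of all genes with a rise and 27.7% with a fall at 48 hours, and 28.9% and 27.9% at 7 days. These shares include genes with few counts. The genes listed under MICOS and outer-membrane bridge had 3 rises and 2 falls among 10 at 48 hours, and 1 rise and 6 falls at 7 days. These 10 include Pisd, which is not a MICOS subunit. Pisd had means of 1004 in DMSO and 1058 in sorafenib at 48 hours, and of 1132 and 783 at 7 days. Genes of OPA1 processing, OMA1 signalling and fusion had 5 rises and 2 falls among 11 at 48 hours, and 4 of each at 7 days. The 4 genes listed under the prohibitin scaffold, with the cardiolipin transacylase Tafazzin among them, had 1 rise and 3 falls, then 2 of each. Of the falls at 48 hours, that of Tafazzin was lost without the lowered library. Of 5 tested supercomplex and HIG family genes, 1 rose and 2 fell at 48 hours and 2 fell at 7 days. Of the CHCHD partners, Chchd2, the closest paralog of Chchd10, went the other way from it: it fell from 3665 ± 96.0 to 2518 ± 170.2 at 48 hours (−0.54, FDR 3.66e-10) and from 3437 ± 33.0 to 2409.6 ± 66.1 at 7 days (−0.51, FDR 7.57e-10). Chchd2 was chosen after its values were seen.

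**Figure D5:**
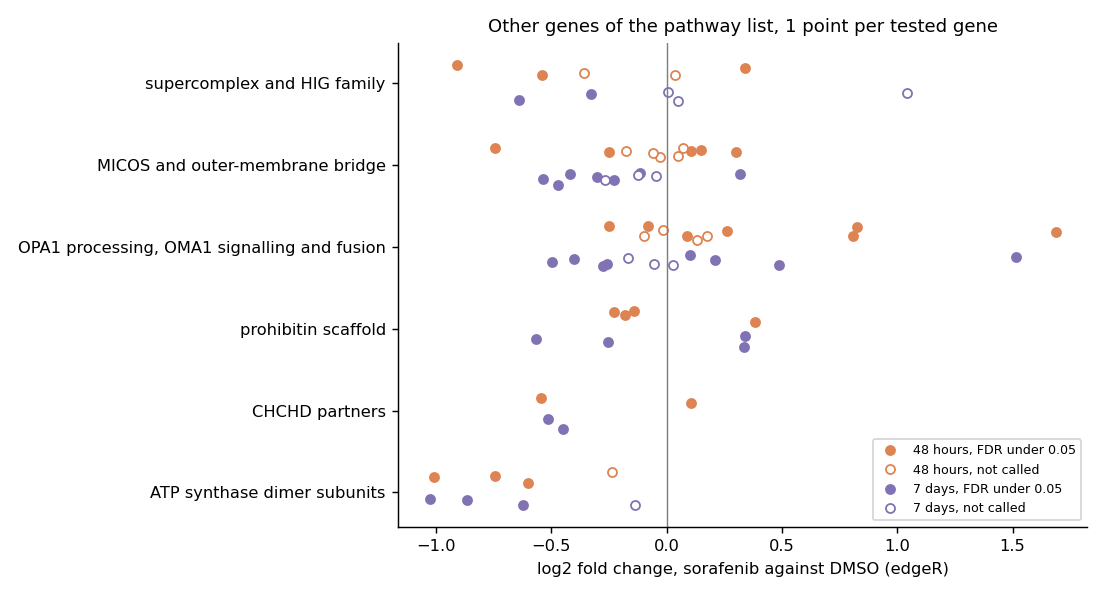
Log2 fold change of sorafenib against DMSO (x axis) for the 36 tested genes of the pathway list, 1 point per gene, by role (y axis) and time point. Ghitm lies farthest to the right, at 1.69 and 1.51, and Atp5mj farthest to the left, at −1.01 and −1.03.

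The genes whose log2 normalized counts were most like those of the 3 most altered genes over the 16 libraries were taken from 10636 candidates with a mean of at least 100. For Chchd10 they were Herpud1, a gene of the ER stress response (Pearson r = 0.996), Adgra2 (0.994) and Arl14ep (0.993). For Higd1a they were Ldha, lactate dehydrogenase A (0.982), Gnas, a G protein subunit (0.981), and Htr1b, a serotonin receptor (0.972). For Chchd3 they were Lamp1, a lysosomal membrane protein (0.992), Uggt1, a sensor of glycoprotein folding in the ER (0.992), and Uvrag, of autophagy (0.991). The 16 points fall into 4 groups and share library and depth, so these values describe likeness over the groups. Ldha had log2 fold changes with sorafenib of −1.10 at 48 hours and 0.08 at 7 days, beside −1.26 and 0.11 for Higd1a. Herpud1 had 1.84 and 1.54, beside 2.33 and 1.87 for Chchd10.

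Some counts may hold reads of other genes. Stretches of 50 bases in a gene's canonical transcript were searched for in transcripts of other annotated genes, on both strands. The share found there was 66.3% for Cox7a2l, 38.4% for Higd1a and 23.1% for Higd2a. It was between 5.99% and 8.75% for Phb2, Oma1, Chchd10 and Immt, and 0 for Opa1, Chchd3 and Chchd6. Exons also overlap genes on the opposite strand, and the strand setting of the counting is not given in the sources used here. Cox7a2l overlaps Eml4 (group means 2452 to 3939 normalized counts), Higd2a overlaps Nop16 (1524 to 2382), Higd1a overlaps Gm47112 (17.5 to 25.1) and Chchd10 overlaps Mmp11. Mmp11 had means of 1122 in DMSO and 1309 in sorafenib at 48 hours, and 426 and 1219 at 7 days. Means of Chchd10 in the same order were 412, 2074, 451 and 1652, and how many reads the overlap brought to either gene was not tested. The levels of Cox7a2l, Higd1a, Higd2a and Chchd10 are uncertain to that extent.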

How the data were processed

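Polyadenylated RNA from 16 samples of p53−/−; Myc hepatoblasts, 4 in each group of drug and time as the labels give them, was sequenced as Illumina stranded libraries. According to the submitters' processing notes, the tools were STAR 2.7.1a, featureCounts 2.0.6 and DESeq2 1.40.2, with the genome GRCm39. The deposited values are raw counts per gene, which the authors did not normalize or pool. The annotation and strand setting of the counting are not given in the sources used here. Replicates differed by more than counting error (lowest chi-square per gene 1.49), so none was a plain copy of another. This does not tell whether they came from separate cultures.

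Genes with under 10 counts in total were removed (20396 genes), which left 20444. Tests used edgeR 4.0.16 under R 4.3.3 (quasi-likelihood test, TMM, 1 coefficient per group, no block) at a Benjamini-Hochberg FDR of 0.05 over all genes. Ratios and single genes had exact permutation tests. The drug comparison at 48 hours and the time comparison in DMSO share the DMSO 48-hour libraries. Figures were drawn with matplotlib 3.10.9, and the steps were tested on simulated data. Library totals were 16586254 to 30828427 counts, and 3 counts was taken as the floor.

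The members and lists were chosen with earlier results of these data known. Named were all 10 members, of the pathway list the 4 called genes with the largest rise and fall at each time, all genes of the ratios, and the 3 genes most like each of the 3 most altered members. The 9, 5, 3 and 3 markers of liver epithelium, stellate cells, endothelium and leukocytes were listed by hand. Positions are from GENCODE vM39 on GRCm39. All 10 members had 1 RefSeq window (GRCm38.p6), which was placed on GRCm39 by exact match. Windows at RefSeq and GENCODE starts were both searched, and the RefSeq ones were chosen for printing after the matches in both had been seen. Proteins are not reported here.

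Alternatives were DESeq2 1.42.0, limma 3.58.1 voom with sample weights, DESeq2's size factors, total counts, TMM without mitochondrially encoded genes, other count filters, only the 8 libraries compared, the replicate block, an offset for the lowered region, a pseudocount of 1 for ratios, other gene lengths, and each library left out. The pattern fixed for mitochondrially encoded genes matched 2 genes, so it was widened, after the table was seen, to 24 rRNA and tRNA genes, and mitochondrial protein genes were not analysed here. The length of the canonical transcript was added after the data were seen.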

Additional observations from a re-analysis of the deposited data

Results flagged for a closer look

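The response to sorafenib differed between 7 days and 48 hours, by the interaction term in edgeR, for 6 of the 10 genes, beside 36.8% of all genes. Of 12158 genes with at least 10 counts in every sample, 6827 passed. Higd1a was higher at 7 days by 1.37 on the log2 scale. Chchd10 differed by −0.46, Phb2 by −0.34, Chchd3 by −0.33, Oma1 by −0.30 and Immt by −0.27. The DMSO libraries of the 2 times enter each of these differences.

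In 2 of 40 sets of 4 libraries, 1 for each gene and group, a library stood far from the other 3. Chance flags about 1 such set in 20. For Opa1 this was replicate 2 of sorafenib for 48 hours, at 2881 normalized counts, the library with the lowered region, and without it the 48-hour log2 fold change was 0.45 in place of 0.32. For Chchd10 it was replicate 3 of DMSO for 7 days, at 556, and the 7-day log2 fold change was 1.99 without it and 1.83 to 1.99 over all libraries left out.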

How the results depend on the processing

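The number of the 10 genes that passed ranged over the alternatives from 6 to 7 at 48 hours, 7 to 10 at 7 days, 5 to 8 for the interaction, 6 to 8 for time in DMSO and 3 to 5 for time in sorafenib. In the pathway list it ranged from 20 to 25 at 48 hours and from 23 to 29 at 7 days. Without replicate 2 of sorafenib for 48 hours the counts were 7, 10, 8, 8 and 5, and 25 and 29 in the list. Of all 20444 genes, 11158, 11613, 7515, 10100 and 8120 passed these 5 comparisons in the main fit. Without that library 11608, 12590, 8761, 11242 and 9047 of 20353 did, so that the counts over all genes rose as well. Of 1290 values of the 10 genes under alternatives, 1198 kept direction and side of the threshold, 24 lost their call, 33 gained one and 35 changed sign, and the causes were not tested.

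The changes of sign were in values that had not passed their test. For time in sorafenib, with DESeq2, its size factors, total counts, at least 10 counts in every sample, only 8 libraries and the offset, Immt was 0.0139, 0.0134, 0.0154, 0.0332, 0.0199 and 0.00627, and −0.0332 to 0.00213 with a library left out. Chchd3 was 0.0106, 0.0109, 0.0128, 0.0308, 0.0176 and 0.00262, and −0.0345 to 0.0104. With a library left out, Opa1 was −0.19 to 0.0163 and Chchd6 −0.0200 to 0.0878 for time in sorafenib, and Oma1 −0.0789 to 0.00966 for time in DMSO. Chchd6 at 48 hours was −0.00863, −0.00868, −0.0648, −0.0329, −0.0190 and −0.0133 under the same alternatives, and −0.0682 to 0.0395 with a library left out. Phb2 at 48 hours was 0.0354 with no filter beyond 1 count. With a library left out, the ratio of Chchd6 to Chchd3 at 7 days was −0.0445 to 0.0280, that of Cox7a2l to Cox7a2 at 48 hours −0.00637 to 0.261 and that of Oma1 to Yme1l1 at 48 hours −0.0418 to 0.0519. In the order by level in DMSO for 48 hours, 7 genes changed place with the longest and 8 with the canonical transcript.

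Immt at 48 hours also lost its call with at least 10 counts in every sample (0.05, FDR 0.0508), as did Oma1 in the interaction (−0.23, FDR 0.0578). Leaving out single libraries ended the call of Immt at 48 hours in 5 fits, of Oma1 in the interaction in 8 and of Chchd6 for time in DMSO in 4. Cox7a2l for time in sorafenib lost its call with only 8 libraries (−0.29, FDR 0.11) and without sorafenib 48-hour replicate 4 (−0.23, FDR 0.0562). At 7 days, Higd1a passed in 4, Higd2a in 7 and Opa1 in 5 of 26 alternatives.

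Deviations of libraries of the same replicate number correlated at −0.0483 to 0.0106 at 48 hours and −0.00740 to 0.123 at 7 days. At 7 days, replicates 2, 3 and 4 had 0.0511, 0.123 and 0.105, beside means of −0.0136, −0.0347 and −0.0421 with other numbers. Replicate 1 had −0.00740 beside 0.00266. Between the DMSO libraries of the 2 times, the same number gave −0.182 to 0.0540. Whether equal numbers mark paired cultures is not given by the labels. With the replicate number as a block, 7, 7, 6, 7 and 4 genes passed, and 22 and 24 in the list, and no call of the 10 genes changed. Of all 20444 genes, 10644, 11027, 6987, 9531 and 7481 passed with that block. For ratios the blocked exact test cannot go below p = 0.125. At this depth the lowest of the 10 genes, Oma1, had at least 266 normalized counts in every library, and the 4 libraries per group limit the ratios to an exact p of 0.0286.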
